A study of Mus musculus with 4 samples.

Results

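Ribosome biogenesis genes encode the enzymes and scaffold proteins that make ribosomal RNA and assemble it with ribosomal proteins in the nucleolus. RNA polymerase I transcribes the precursor RNA, small nucleolar ribonucleoproteins (snoRNPs) modify it, and assembly factors fold and cleave it into the small and the large subunit. T cells that are activated and divide are known to need this pathway for growth. The genes described here were chosen by name and type, with earlier results of these data known. They were the protein-coding genes whose symbol begins with Utp, Nop, Rrp or Noc and a digit or the letter l, or with Polr1. To these were added Wdr43, Wdr46, Ncl, Npm1, Fbl, Dkc1, Gar1, Nhp2, Bop1, Pes1, Ftsj3, Ddx21 and Nolc1. This gave 47 of the 52636 genes in the deposited table. All 47 passed the filter on low counts and were tested. Their counts ran from 253 to 21448 in a library, so none was near the detection floor of 3 counts. Read as any symbol of Wdr4 and a digit, the rule would also take in genes with no known part in the pathway. They were left out; with them there were 54 genes, of which 16 were lower and 0 higher, as without them.

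The data were 4 RNA-seq libraries of C57BL/6 mouse splenic naive CD4 T cells grown for 3 days in a culture meant to yield Tfh cells (T follicular helper cells, which help B cells make antibody). Of these, 2 were labelled E4BP4-cKO, a conditional knockout of the transcription factor encoded by Nfil3, and 2 wild-type. All 4 cultures held the cytokines IL-21 and IL-6, both at 10 ng/ml, with antibodies to IL-4 and IFN-γ, both at 10 µg/ml, and to TGF-β, at 20 µg/ml. The sources used here do not name the Cre driver, the deleted part of the gene or the age and sex of the mice. They do not say either that a group's libraries are from separate mice or cultures, so p-values measure the spread between these libraries, which may be technical. The labels are kept as names only, because Nfil3 went against them. It stood at 179 and 216 CPM (counts scaled to library size with TMM factors) in the libraries labelled E4BP4-cKO and at 13.3 and 14.8 CPM in those labelled wild-type. The RNA of the targeted gene was thus higher where the label says it was deleted (log2 fold change 3.81, SE 0.15, edgeR adjusted p = 0.00396). Every direction below is between libraries with these labels and says nothing of which carried the deletion. The terms cKO-labelled and wild-type-labelled stand for these libraries.

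Total counts ran from 19057077 to 26579592 per library. The summed level of 7 T cell markers was 2677 and 3272 CPM in the cKO-labelled libraries and 2788 and 2821 CPM in the others, and edgeR called 0 of the 7 (1 at an unadjusted p under 0.05, 0 by DESeq2 and 0 by limma-voom). The 5 Tfh markers summed to 561 and 591 against 553 and 559.9 CPM, with 1 of 5, Icos, higher by edgeR (0 lower, and 2 lower and 1 higher at an unadjusted p under 0.05; 1 and 1 by DESeq2). Icos, at a log2 fold change of 0.77, makes up much of that sum. Pdcd1 (-0.69), Il21 (-0.72) and Bcl6 (-0.47) lay the other way without overlap, as 33.6% of all genes did, and were not called. Markers of other cells moved with the groups. The 6 B cell markers summed to 77.2 and 37.7 CPM in the cKO-labelled libraries and to 373 and 369.99 CPM in the others, with 2 of 6 lower. The 7 myeloid markers summed to 219 and 163 against 32.2 and 14.4 CPM, with 6 of 7 higher, and the 6 mast cell or basophil markers to 1191 and 881 against 329.7 and 70.8 CPM, with 3 of 6 higher. None of these markers had 0 counts in all 4 libraries. Their part in the differences below was not tested. In bulk RNA, fewer cells of a type and less RNA per cell cannot be told apart.

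The ribosome biogenesis genes stood mostly lower in the cKO-labelled libraries. Of the 47 members, 16 were lower and 0 higher at an adjusted p under 0.05 by edgeR's quasi-likelihood test, where 6.53% of all 15503 genes tested were lower, 7.68% higher and 14.2% either (1013 and 1191 genes; 1636 and 1033 under scaling to total library size). At an unadjusted p under 0.05, 33 members were lower and 2 higher, where 2655 and 2883 of all 15503 genes were. DESeq2 called 26 members lower and 2 higher (1676 and 1834 of all genes), and limma-voom 16 and 0 (1009 and 1233). Below, a gene is said to be called or not called by edgeR unless another tool is named. The median log2 fold change of the members was -0.45, where that of all genes tested was 0.02, and 41 of 47 had a negative value. Both cKO-labelled libraries lay below both wild-type-labelled libraries for 39 members, a pattern that 33.6% of all genes showed, and above both for 4, against 34.6% of all genes. The remaining 4 overlapped. These shares over all genes apply wherever such a pattern is given for a gene below.

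The size of the difference was moderate. The 16 lower members stood at between 49.7% and 69.1% of their wild-type-labelled level, with log2 fold changes from -0.53 to -1.01 and standard errors (SE) from 0.11 to 0.18. A further 17 members had an adjusted p between 0.05 and 0.1, of which 15 had negative and 2 positive log2 fold changes. The calls depended on single libraries. Calls over all genes also fell in both directions with any library left out, so a loss of calls is not particular to the members. With replicate 2 of the cKO-labelled group left out, edgeR called 0 members in either direction (23 lower and 2 higher at an unadjusted p under 0.05). With replicate 1 of the wild-type-labelled group left out it also called 0 (21 and 0 at an unadjusted p under 0.05); DESeq2 and limma-voom were not run on these subsets. The median log2 fold change was -0.35 and -0.38 in these fits, and 41 members had a negative value in each.

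**Figure D1:**
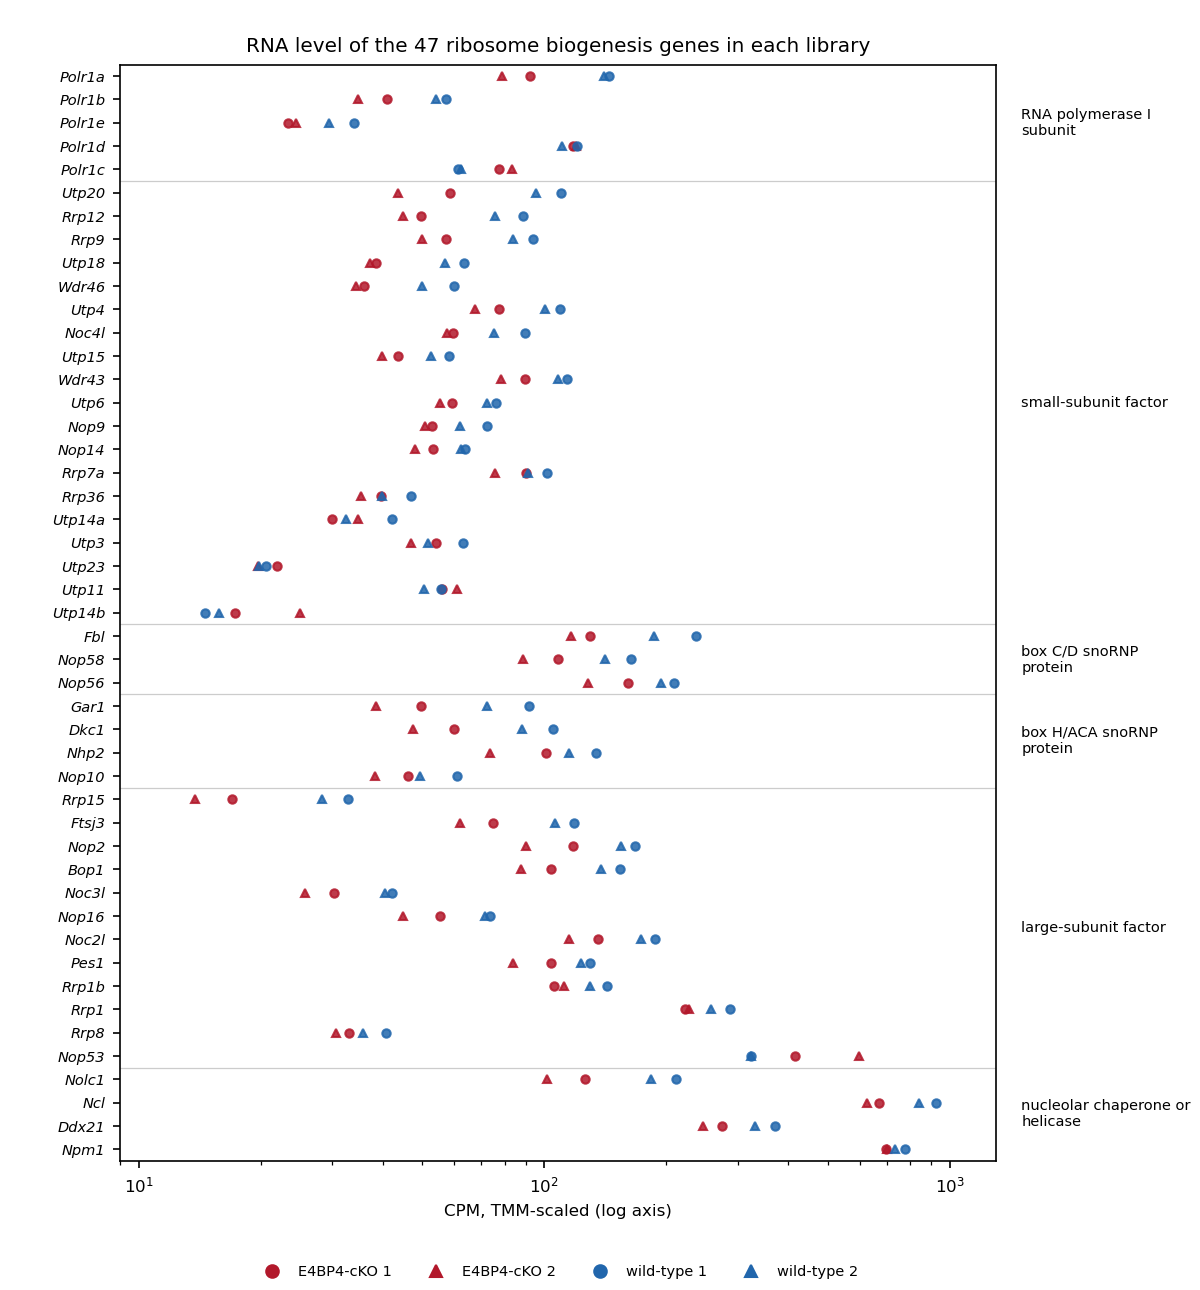
RNA level of each of the 47 ribosome biogenesis genes in the 4 libraries, in TMM-scaled CPM on a log axis, grouped by role. Red marks the libraries labelled E4BP4-cKO and blue those labelled wild-type, with circles for replicate 1 and triangles for replicate 2. For 39 genes both red points lie to the left of both blue points, and for 4, Polr1c, Utp11, Utp14b and Nop53, to the right.

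The members also differed between libraries of a group. In the cKO-labelled group, replicate 2 was below replicate 1 for 37 of the 47 genes, by a median of 11.1%, and in the wild-type-labelled group replicate 2 was below replicate 1 for 44, by a median of 10.1%. The median deviation of a member from its own mean over the 4 libraries, on the log2 scale, was -0.16 and -0.33 in the cKO-labelled libraries and 0.30 and 0.15 in the others. The gap between the groups was wider than the gap within either.

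Of the 5 members named Polr1, which encode subunits of RNA polymerase I, 2 were lower and 0 higher (3 and 1 at an unadjusted p under 0.05, 2 and 1 by DESeq2). These 2 encode the catalytic core. Beside this and the role groups below stand 16 lower and 0 higher of all 47 members. Of all 15503 genes, 6.53% were lower and 7.68% higher (2655 and 2883 genes at an unadjusted p under 0.05, 1676 and 1834 by DESeq2). Polr1a encodes the largest subunit (chromosome 6, 71909053 to 71984935 in mm10). It stood at 92.5 and 78.8 CPM in the cKO-labelled libraries and at 144 and 141 CPM in the others, a log2 fold change of -0.73 (SE 0.12, edgeR adjusted p = 0.0294). Polr1b, the gene of the second largest subunit, stood at 40.9 and 34.8 against 57.2 and 54.2 CPM (log2 fold change -0.56, SE 0.13, edgeR adjusted p = 0.0466). Both genes were lower without overlap between groups, a pattern of 33.6% of all genes. Polr1e, which encodes a subunit specific to polymerase I, stood at 23.4 and 24.4 against 33.97 and 29.6 CPM and was not called (-0.41, SE 0.14, edgeR adjusted p = 0.105).

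Polr1c and Polr1d encode subunits that polymerase I is known to share with RNA polymerase III, and neither was lower. Polr1c stood at 77.4 and 83.5 CPM in the cKO-labelled libraries and at 61.2 and 62.2 CPM in the others. Its cKO-labelled libraries were both above the others, but the gene was not called by edgeR (log2 fold change 0.38, SE 0.10, adjusted p = 0.0585); DESeq2 called it higher (adjusted p = 0.0473). Polr1d stood at 118 and 120.1 against 121 and 111 CPM, and the groups overlapped (0.04, SE 0.10). Further subunit genes of polymerase I bear other names and are in the list of its transcription factors and accessory subunits below. Of these, Cd3eap (log2 fold change -0.99) and Twistnb (-0.32) lay lower and Znrd1 (0.18) higher, all without overlap and not called. Over all genes 33.6% lay lower and 34.6% higher without overlap. The difference between shared and specific subunits was itself not tested.

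Among the 19 small-subunit factors, 6 were lower and 0 higher, beside 16 and 0 of all 47 members and 6.53% and 7.68% of all genes. At an unadjusted p under 0.05 the counts were 12 and 0, and by DESeq2 9 and 0. The median log2 fold change of the group was -0.37. Many of these proteins form the small-subunit processome, the assembly that folds the first part of the precursor RNA around the U3 snoRNA. Utp20, one of its large scaffold proteins (chromosome 10, 88746607 to 88826804), had the largest log2 fold change of the 47 members in the edgeR fit, with Rrp15, described below, within its SE. With replicate 2 of the cKO-labelled group left out, Rrp15 was ahead (-0.83 against -0.79). Utp20 stood at 58.5 and 43.5 CPM in the cKO-labelled libraries and at 109.9 and 95.4 CPM in the others, a log2 fold change of -1.01 (SE 0.17, edgeR adjusted p = 0.0301).

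Rrp12, a factor of pre-ribosome maturation and export, stood at 49.7 and 44.8 against 88.9 and 75.6 CPM (log2 fold change -0.80, SE 0.13). Rrp9, the protein particular to the U3 snoRNP, stood at 57.2 and 50.1 against 93.9 and 83.9 CPM (-0.73, SE 0.12). Utp18, a part of the UtpB subcomplex, stood at 38.5 and 37.3 against 63.5 and 56.9 CPM (-0.67, SE 0.11). In each the cKO-labelled libraries lay below the others by more than the gap within either group. Wdr46, a processome scaffold protein, stood at 35.99 and 34.4 against 60.02 and 50.04 CPM (-0.64, SE 0.13), and Utp4, of the UtpA subcomplex, at 77.4 and 67.4 against 109 and 100.2 CPM (-0.53, SE 0.12). edgeR's adjusted p for these 5 genes ran from 0.0288 to 0.0437.

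The other small-subunit factors were not called by edgeR, while DESeq2 called Noc4l, Wdr43 and Utp6 lower (adjusted p = 0.0196, 0.0381 and 0.0495). Wdr43, a UtpA protein, stood at 89.7 and 78.3 against 114 and 108 CPM, without overlap (log2 fold change -0.40, SE 0.11, edgeR adjusted p = 0.0679). Noc4l, Utp15, Utp6, Nop9 and Nop14 also lay lower without overlap, as 33.6% of all genes did, with log2 fold changes from -0.49 to -0.32. Of Nop9's exon bases, 29.9% are also covered by the antisense gene Cideb, and the strand setting of the counting is not given, so reads of the pair cannot be told apart. Rrp7a and Rrp36 lay lower without overlap too, at -0.22 and -0.21. Utp3, Utp14a and Utp23 overlapped between groups. Utp11 had a log2 fold change of 0.14 and Utp14b one of 0.47 (SE 0.22, edgeR adjusted p = 0.190). Utp14b is known as a retrocopy of the X-linked Utp14a, so reads of these copies may be split between them. Its level was 17.3 and 25.002 CPM in the cKO-labelled libraries and 14.6 and 15.8 CPM in the others, and that of Utp14a 29.99 and 34.7 against 42.1 and 32.5 CPM.

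The snoRNP proteins guide chemical modification of ribosomal RNA. Box C/D particles methylate ribose. All 3 members that encode their core proteins lay lower without overlap, as 33.6% of all genes did. Of these, 2 were called (3 by DESeq2), and the median log2 fold change was -0.63. A further core gene, Snu13, is in the list of snoRNP assembly factors below (-0.50, edgeR adjusted p = 0.0731, not called). Fbl, the methyltransferase fibrillarin (chromosome 7, 28169710 to 28179269), stood at 129.97 and 117 CPM in the cKO-labelled libraries and at 237 and 186 CPM in the others. This was a log2 fold change of -0.78 (SE 0.15, edgeR adjusted p = 0.0361). Nop58 and Nop56 form the scaffold that holds the guide RNA. Nop58 stood at 108 and 88.7 against 164 and 141 CPM (log2 fold change -0.63, SE 0.14, edgeR adjusted p = 0.0467) and Nop56 at 161 and 129 against 208 and 194 CPM, not called (-0.48, SE 0.14, edgeR adjusted p = 0.0783).

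Box H/ACA particles convert uridine to pseudouridine, and the genes of all 4 core proteins lay lower without overlap (33.6% of all genes), with a median log2 fold change of -0.67. Dkc1, the pseudouridine synthase dyskerin (X chromosome, 75095854 to 75109777), stood at 60.1 and 47.6 CPM in the cKO-labelled libraries and at 104.96 and 88.1 CPM in the others (log2 fold change -0.84, SE 0.16, edgeR adjusted p = 0.0347). Gar1 stood at 49.8 and 38.4 against 91.6 and 72.4 CPM (-0.89, SE 0.18, edgeR adjusted p = 0.0384). These 2 genes were called. Nhp2 stood at 101 and 73.7 against 134 and 115 CPM (-0.51, SE 0.18, edgeR adjusted p = 0.111) and Nop10 at 46.1 and 38.2 against 60.98 and 49.3 CPM (-0.38, SE 0.16, edgeR adjusted p = 0.152), and neither was called.

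**Figure D2:**
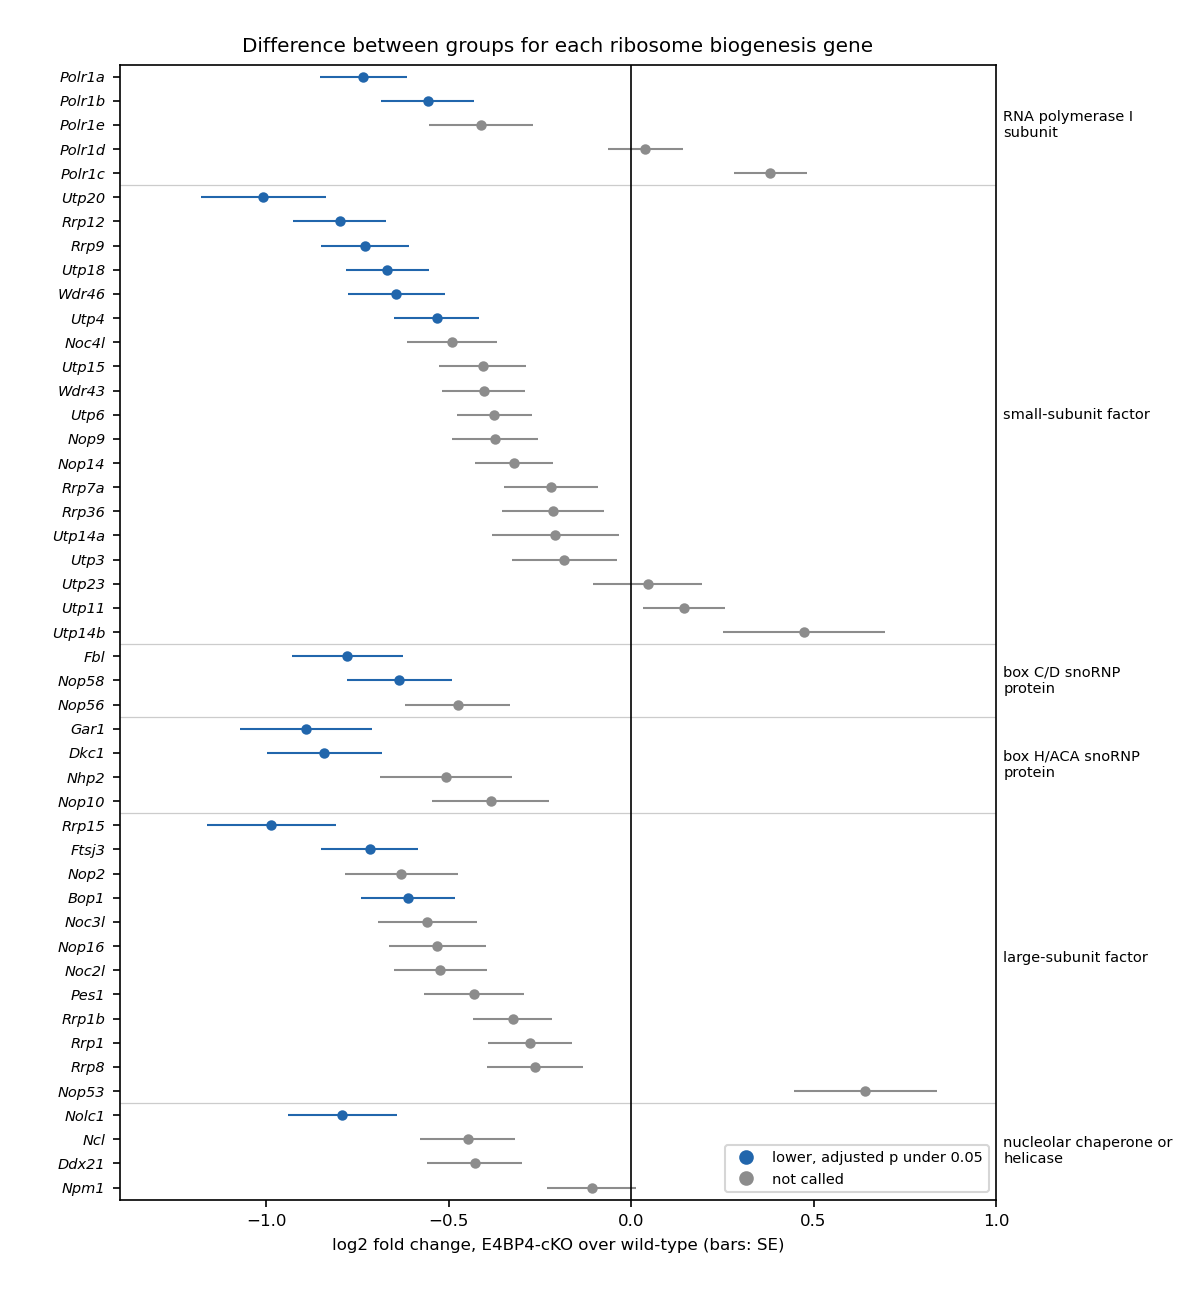
Log2 fold change of each member, cKO-labelled over wild-type-labelled, with bars for the standard error, from the edgeR fit to all genes. Blue marks the 16 genes called lower and grey those not called; 41 points lie left of 0, and Nop53, at 0.64, lies farthest to the right.

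Of the 12 large-subunit factors, 3 were lower and 0 higher, beside 16 and 0 of all 47 members and 6.53% and 7.68% of all genes. At an unadjusted p under 0.05 the counts were 9 and 1, and by DESeq2 7 and 1. The median log2 fold change of the group was -0.53. Rrp15 stood at 17.03 and 13.8 CPM in the cKO-labelled libraries and at 32.9 and 28.3 CPM in the others, a log2 fold change of -0.99 (SE 0.18, edgeR adjusted p = 0.0322). Ftsj3, a methyltransferase homologue of pre-ribosomal RNA processing, stood at 74.7 and 62.1 against 118 and 107 CPM (-0.72, SE 0.13). Bop1 and Pes1 encode partners in the PeBoW complex. Bop1 stood at 104 and 87.6 against 154 and 138 CPM (-0.61, SE 0.13, edgeR adjusted p = 0.0411). Pes1 stood at 103.9 and 83.6 against 129.8 and 123 CPM and was not called (-0.43, SE 0.14, edgeR adjusted p = 0.0878).

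Nop2, a cytosine methyltransferase of ribosomal RNA, stood at 118 and 90.2 CPM in the cKO-labelled libraries and at 167 and 155 CPM in the others, just outside the threshold (log2 fold change -0.63, SE 0.15, edgeR adjusted p = 0.0529). Noc2l, Noc3l and Nop16 were similarly placed, with adjusted p from 0.0521 to 0.0539 by edgeR, and DESeq2 called all 4 lower. Of Noc2l's exon bases, 20.9% are also covered by the antisense gene Samd11. The other members of this group, Rrp1, Rrp1b and Rrp8, had log2 fold changes from -0.32 to -0.26.

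Nop53 went the other way. It encodes a late large-subunit factor, known in yeast for guiding the RNA exosome to the pre-ribosome, and lies on chromosome 7 from 15936183 to 15946074. It stood at 415 and 596 CPM in the cKO-labelled libraries and at 323 and 324 CPM in the others. The cKO-labelled libraries were both higher and differed widely from each other. The log2 fold change of 0.64 (SE 0.20) was not called by edgeR (adjusted p = 0.0815), but DESeq2 called it (adjusted p = 0.0121), and so did edgeR when replicate 1 of that group was left out (0.88 on the log2 scale, adjusted p = 0.0314). With replicate 2 of that group left out the value was 0.37 (edgeR adjusted p = 0.169).

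The last group encodes abundant nucleolar chaperones and a helicase. Nolc1, a chaperone of snoRNPs, was the gene of this group that was called, at 126 and 102 CPM in the cKO-labelled libraries and 211 and 184 CPM in the others (log2 fold change -0.79, SE 0.15, edgeR adjusted p = 0.0352). Ncl, which encodes nucleolin, stood at 669 and 627 against 926 and 842 CPM (-0.45, SE 0.13, edgeR adjusted p = 0.0741), and the helicase gene Ddx21 at 274 and 247 against 371 and 330.1 CPM (-0.43, SE 0.13, edgeR adjusted p = 0.0791). Neither was called by edgeR, although the groups did not overlap and DESeq2 called both. Npm1, the gene of nucleophosmin, differed least of these, at 697 and 702 against 775 and 732 CPM (-0.11, SE 0.12). It is known to have processed pseudogene copies, so its count is uncertain.

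Levels per length put the members in order within the groups, but this order rests on the deposited lengths. For Ncl that length, 10188 bases, equals all its annotated exon bases merged, among them bases shared with snoRNA genes such as Snora75. The length of the RNA present in these cells was not measured, so the order is uncertain. Scaled to kilobases of the deposited gene length, Npm1 was highest, at a mean of 262 CPM per kb in the cKO-labelled and 283 in the wild-type-labelled libraries. Nop53 was next in the cKO-labelled libraries, at 131 CPM per kb, against 84.2 in the others, where Nhp2, at 109, and Ncl, at 86.7, stood above it. In the cKO-labelled libraries Nhp2 stood at 76.4 and Ncl at 63.6 CPM per kb. Utp14b was lowest in both groups, at 2.75 and 1.98 CPM per kb.

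A feature that the choice by name did not use is the hosting of snoRNA genes. In the deposited table, 6 of the 47 members (12.8%) held a snoRNA gene on the same strand within their span, where 1.63% of the 12836 protein-coding genes tested did. Nop56 held 5, Nop58 4, Ncl and Wdr43 3 each, and Dkc1 and Nop53 1 each. The log2 fold change was negative for 5 of the 6 hosts, all but Nop53, beside 41 of the 47 members and 48.2% of all genes tested. Nop58 and Dkc1 were called, 2 of the 6, beside 16 of the 47 members and 6.53% of all genes. Both counts are close to the share over the members. By the GENCODE M21 annotation, 19 members shared exon bases with another gene, and Nop9 and Noc2l did so over more than 20% of theirs.

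The sequences before the members' starts were searched for CACGTG, the E-box that Myc and Max proteins are known to bind, and for TTANGTAA, a site of the type E4BP4 binds. Windows were the 250 bases before each RefSeq start (GRCm38.p6), read on both strands. The table held 39 of the members. These windows are not all free of transcribed sequence: 17 of the members' windows held no exon base in GENCODE M21. CACGTG was present in 5 of these 39 genes (12.8%) and in 6.86% of the 27025 genes in the table; it was in 2 of the 13 members called lower and 3 of the 26 others. TTANGTAA was in 0 of the 39 and in 2.44% of all genes in that table. The table includes genes not tested here, while all members were tested. The genes were not matched for base composition either, so these shares are not like for like. A match is a description of letters and not a site. The E-boxes are shown in capitals, each with up to 12 bases on either side, since they stand at different distances from the RefSeq start and in windows of genes that went both ways:

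Utp18: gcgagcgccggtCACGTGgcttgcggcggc

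Wdr46: aagggagtttcgCACGTGgatcgt

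Nop2: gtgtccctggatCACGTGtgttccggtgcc

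Rrp7a: gtgcctgtgcacCACGTGtcctggaactgg

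Utp14b: cgcgggcgcgggCACGTGggtggggtcgtc

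The stretches shown are chr17:33940699-33940722 (plus strand) for Wdr46, chr11:93885769-93885798 (minus strand) for Utp18, chr6:125131811-125131840 (plus strand) for Nop2, chr1:78658365-78658394 (plus strand) for Utp14b and chr15:83122992-83123021 (minus strand) for Rrp7a. Within them, the first base of the E-box itself lies 12 bases before the RefSeq start for Wdr46, 20 for Utp18, 60 for Nop2, 63 for Utp14b and 208 for Rrp7a. The stretch of Wdr46 lies in an exon of Wdr46 in GENCODE M21, where the gene starts farther upstream. That of Utp14b lies within the deposited span of Utp14b, which starts at 78658038, though its window holds no exon base. By edgeR, Utp18 and Wdr46 were lower, Nop2 and Rrp7a were not called (DESeq2 called Nop2 lower), with log2 fold changes of -0.63 and -0.22, and Utp14b had a log2 fold change of 0.47. Utp20 held neither motif in the window shown here for contrast (chr10:88826815-88827064, minus strand), and no capitals are marked in it.

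Utp20: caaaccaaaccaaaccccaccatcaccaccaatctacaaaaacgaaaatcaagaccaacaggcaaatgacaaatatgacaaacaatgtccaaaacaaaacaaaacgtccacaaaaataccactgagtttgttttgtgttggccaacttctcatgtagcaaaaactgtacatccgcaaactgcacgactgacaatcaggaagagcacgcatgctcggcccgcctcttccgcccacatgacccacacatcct

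Other genes of the pathway, in lists also drawn up with earlier results of these data known, lay mostly lower in the same libraries. Of 117 tested genes from 5 further lists of ribosome biogenesis factors, 34 were lower and 2 higher, beside 6.53% and 7.68% of all genes, with a median log2 fold change of -0.42 (0.02 over all genes). At an unadjusted p under 0.05, 74 were lower and 3 higher, beside 2655 and 2883 of all 15503 genes. With replicate 2 of the cKO-labelled group or replicate 1 of the other left out, edgeR called 0 of them either way. With the remaining libraries left out in turn, 15 and 16 were lower. In the small-subunit list 13 of 34 were lower, among them Rcl1, an early cleavage factor (log2 fold change -1.30, SE 0.21), Nol6 (-0.86, SE 0.15), Pwp2 (-0.66, SE 0.12) and Heatr1 (-0.53, SE 0.10). The kinase gene Riok1 was higher (0.50, SE 0.12, edgeR adjusted p = 0.0483), a call that limma-voom and scaling to total library size did not make (adjusted p = 0.0519 and 0.0620). In the large-subunit list 15 of 42 were lower, among them Gnl3, which encodes nucleostemin (-0.76, SE 0.13), Pelp1 (-0.74, SE 0.13) and Wdr18 (-0.84, SE 0.16), while Nol8 was higher (0.78, SE 0.14, edgeR adjusted p = 0.0339). Neither higher call was made by edgeR when any 1 library was left out.

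Of the 10 genes in the list of snoRNP assembly factors, which also holds the core gene Snu13, 3 were lower. These were Naf1 (log2 fold change -1.09, SE 0.18), Pih1d1 (-0.56, SE 0.12) and Ruvbl2 (-0.62, SE 0.14). In that list 0 were higher at an adjusted or an unadjusted p under 0.05 by edgeR, and 0 by DESeq2 or limma-voom. Of the 21 tested genes of the RNA exosome and RNase MRP, 3 were lower, Exosc2 (-0.98, SE 0.17), Exosc10 (-0.59, SE 0.14) and Pop5 (-0.66, SE 0.14). DESeq2 called 5 of the 10 and 6 of the 21 lower. Of all 15503 genes, 6.53% were lower by edgeR, and DESeq2 called 1676 genes lower. Ruvbl1 (-0.54) and Rpp14 (-0.65) were not called by edgeR but were lower by DESeq2 (adjusted p = 0.0198 and 0.0160). The 10 transcription factors and accessory subunits of polymerase I had 0 called by edgeR or limma-voom, 4 lower at an unadjusted p under 0.05 and 3 lower by DESeq2. Cd3eap (-0.99, SE 0.27), Rrn3 (-0.42, SE 0.11), Ubtf (-0.42, SE 0.14) and Taf1c (-0.31, SE 0.11) had the lowest p of that list.

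Myc is known to drive many ribosome biogenesis genes, and Mxd proteins to oppose it at the same sites. Myc itself stood at 341 and 219 CPM in the cKO-labelled libraries and at 303 and 357 CPM in the others, and the groups overlapped (log2 fold change -0.24, SE 0.23, edgeR adjusted p = 0.505). Mxd1 stood at 384 and 322 against 127 and 203 CPM and was higher (1.10, SE 0.25, edgeR adjusted p = 0.0456), as was Mxi1, at 64.9 and 72.2 against 35.6 and 41.2 CPM (0.84, SE 0.13). Mxd3 was lower, at 12.4 and 14.5 against 39.8 and 27.4 CPM (-1.32, SE 0.23). Mycn stood at 49.6 and 32.9 against 5.21 and 15.1 CPM and was not called by edgeR (2.02, SE 0.51, adjusted p = 0.0551), while DESeq2 and limma-voom called it higher (adjusted p = 0.000297 and 0.0405). The calls of Mxd1, Mxi1 and Mxd3 were lost in edgeR when replicate 2 of the cKO-labelled group or replicate 1 of the other was left out, and for Mxd1 and Mxd3 also when replicate 1 of the cKO-labelled group was. The other genes of the network, Max, Mnt, Mlx, Mga and Mxd4, had log2 fold changes from -0.14 to 0.10. Of the 10 genes of the network, 1 was lower and 2 higher, beside 6.53% and 7.68% of all genes. Whether any of them bears on the members was not tested.

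The RNA of the cytosolic ribosomal protein genes, whose proteins the pathway assembles, did not follow that of the pathway's genes. Of 83 tested cytosolic ribosomal protein genes, 7 were higher and 0 lower (52 and 0 at an unadjusted p under 0.05, where 2883 of all 15503 genes were higher; 53 and 0 by DESeq2), a share (8.43%) near that of all genes, but with a median log2 fold change of 0.40, and 75 had both cKO-labelled libraries above both others (34.6% of all genes). For every 100 counts on cytosolic ribosomal protein genes, the members together had 6.47 and 5.29 counts in the cKO-labelled libraries and 9.98 and 9.37 in the others, a ratio that does not depend on the scaling. The difference between the lists was not tested, since genes are not replicates. With replicate 2 of the cKO-labelled group or replicate 1 of the other left out, 0 were higher, with replicate 1 of the cKO-labelled group left out 32, and with replicate 2 of the other 3. Many of these genes have pseudogene copies, so their counts are uncertain. Of 77 mitochondrial ribosomal protein genes, 3 (3.90%) were lower and 1 (1.30%) higher, beside 6.53% and 7.68% of all genes, with a median of -0.19. At an unadjusted p under 0.05, 22 were lower and 2 higher, where 2655 and 2883 of all 15503 genes were. DESeq2 called 9 and 2, where it called 1676 and 1834 of all genes. A negative log2 fold change was found for 60 of the 77, beside 48.2% of all genes. Without overlap, 44 lay lower and 8 higher (33.6% and 34.6% of all genes).

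**Figure D3:**
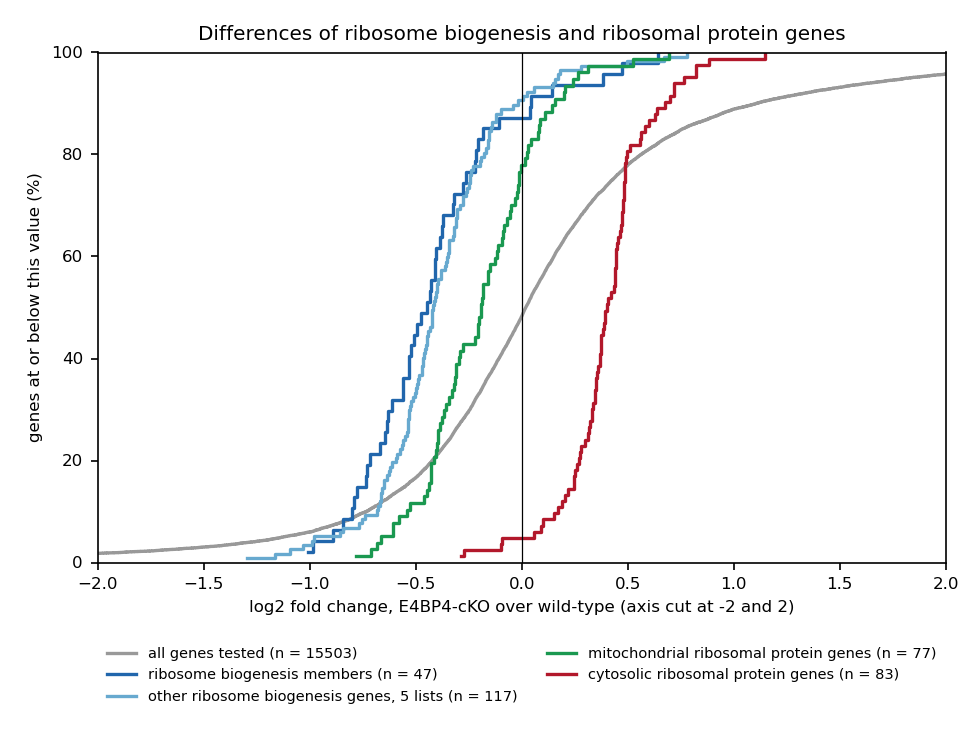
Share of genes (%) at or below each log2 fold change, cKO-labelled over wild-type-labelled, for the 47 members, 117 other ribosome biogenesis genes, 77 mitochondrial and 83 cytosolic ribosomal protein genes, and all 15503 genes tested. The medians are -0.45, -0.42, -0.19, 0.40 and 0.02; the axis is cut at -2 and 2.

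The direction of the median held in every fit, while the number of calls did not. Since 39 of the 47 members lay lower without overlap, leaving out a library could hardly turn the median. The other fits used the same 4 libraries, so the held direction adds no support. Over the 10 alternative fits the median log2 fold change of the members ran from -0.53 to -0.35 and that of the cytosolic ribosomal protein genes from 0.31 to 0.52. The number of members called lower ran from 0 to 29, and that called higher from 0 to 2.

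**Figure D4:**
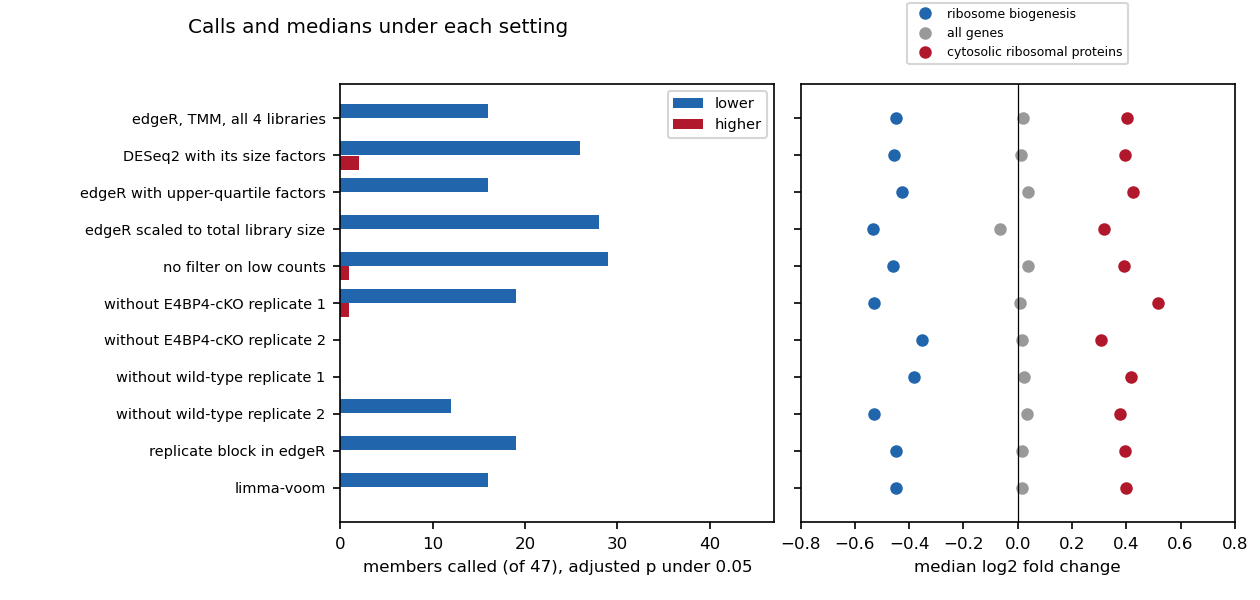
Left, number of the 47 members called lower (blue) and higher (red) at an adjusted p under 0.05 in the main fit (top) and under each alternative; right, median log2 fold change of the members (blue), of all genes tested (grey) and of cytosolic ribosomal protein genes (red). Calls fall to 0 when replicate 2 of the cKO-labelled group or replicate 1 of the other is left out, and the blue points stay left of 0 throughout.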

How the data were processed

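Counts of reads per gene, not normalised, were deposited by the authors for all 4 libraries. Per the submitters' processing notes, CASAVA, HISAT2 and featureCounts were used on mm10. The sources used here give no version, annotation release, strand setting or rule for multi-mapping reads. Gene length was taken as deposited. Columns were matched to samples by title.

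From the counts, edgeR 4.0.16 in R 4.3.3 was run with TMM factors, filterByExpr, glmQLFit and glmQLFTest, without covariate, on 15503 genes. The p-values are two-sided, with Benjamini-Hochberg adjustment over all these genes, and genes were called at 0.05. CPM used TMM-scaled totals of the genes tested. SE is the log2 fold change divided by the square root of the F statistic. A permutation test of 2 against 2 libraries cannot pass the threshold and was not used. Counts within a group differed by more than sampling noise (chi-square per degree of freedom 32.5 for E4BP4-cKO, 25.1 for wild-type). Alternatives were DESeq2 1.42.0, limma-voom 3.58.1, other scaling, no filter, each library left out and a replicate block. The fit was tested on simulated data with these libraries' dispersions, in which it missed many of the smaller changes and a larger share of its calls was false than the threshold allows, so calls near the threshold are less certain than their adjusted p. Members and lists were chosen with earlier results of these data known. Named genes were a fixed list, the members and list genes with the lowest p in each role or list, and genes in counts of 5 or fewer; other genes were named after their values were seen. Exon overlap came from GENCODE M21, in which 42 of the 47 members had the deposited coordinates.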

Additional observations from a re-analysis of the deposited data

How the results depend on the processing

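None of the 16 lower members changed sign under any of the 10 alternative fits. All 16 had both cKO-labelled libraries below both others, so leaving out a library could hardly change a sign. The other fits used the same 4 libraries, so the kept signs add no support. DESeq2 called 26 members lower and 2 higher (all genes 1676 and 1834, the 5 further lists 53 lower), and edgeR without a filter on low counts 29 and 1 (2237 and 2680, lists 58 lower). Scaling to total library size gave 28 members lower and 0 higher (1636 genes lower in all, lists 57 lower and 1 higher). limma-voom called 1 gene of the lists higher. With 1 library left out, members lower ran from 0 to 19 and higher from 0 to 1, list genes lower from 0 to 16 and higher from 0 to 1, and all genes lower from 74 to 806 and higher from 246 to 954. In these fits a group of 1 library is assumed to vary like the other, and fewer libraries were tested. Of the 16 lower members, 14 kept their call when E4BP4-cKO replicate 1 was left out and 12 when wild-type replicate 2 was, and 0 when either other library was. With the replicate number as a block, 19 members were lower and 0 higher, with a median of -0.45, and 1064 genes were lower and 1375 higher. The numbers do not pair the samples by any label, and deviations of same-numbered libraries correlated at r = 0.06 across 15503 genes, which are not independent. Outside the points named here the cause of a changed count was not tested.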
